A study of Mus musculus with 9 samples.

Results

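RNA polymerase II (Pol II) and the Mediator complex were described here gene by gene in the skin of Supt6-KO and control mice. The members were the rows of the count table whose mouse symbol is Polr2 followed by a letter from a to m, or Med followed by a number, with or without a final l. This rule found 43 of the 17943 rows, 13 for Pol II and 30 for Mediator, on 19 chromosomes, and all 43 were among the 16426 genes that had enough counts to be tested. The control group held 5 mice and the Supt6-KO group 4 mice, and bulk RNA-Seq of whole skin was done on day 10 after the last of 5 daily injections. Supt6-KO mice carried K14-CreERT and Supt6 fl/fl alleles and received tamoxifen at 50 mg/kg. Controls were described in the study as Supt6 fl/fl mice given corn oil, so that Cre, tamoxifen and the deletion all differ together. The labels call the controls wild-type and the tissue ear, and the methods give dorsal skin. The study describes the Supt6-KO skin as lesional and the control skin as matched, so the lesion also differs with the group. The K14 promoter drives Cre in basal epithelial cells, whose progeny inherit the deletion, and cells outside that lineage keep Supt6. The estimated counts summed to between 29627341 and 30967107 per mouse.

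Pol II is the enzyme that transcribes protein-coding genes. Its catalytic centre lies between its largest subunits, encoded by Polr2a and Polr2b, and several of its small subunits also belong to Pol I, which makes ribosomal RNA, and Pol III, which makes transfer RNA. Mediator is the large assembly that carries signals from DNA-bound activators to Pol II at promoters, and its subunits are grouped into a head, a middle and a tail held together by the backbone subunit Med14, plus a kinase module that binds reversibly. SPT6, the product of Supt6, is a histone chaperone that binds Pol II and travels with it along genes.

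Promoter sequences are shown first, since the 43 genes serve the same machinery and short motifs can be compared between those that rose and those that fell. A RefSeq promoter entry (GRCm38) of 300 bases, from 250 before to 50 after the start, was found for 36 of the 43 genes. Polr2d, Polr2g, Polr2k, Med8, Med23, Med24 and Med30 had no entry. The 150 bases before the start are printed below, read 5′ to 3′ on the gene's own strand, for the genes with an entry that rose or fell most in each complex. Capitals mark matches on either strand to 6 motifs. The TATA box was searched as TATAAA, and the CCAAT box by the letters in its name. The GC box, known for binding Sp1 factors, was searched as GGGCGG. The core bound by ETS factors was searched as CCGGAA, the core of YY1 as AAGATGGC, and the palindromic motif of NRF1 was also marked. The coordinates are chr16:20717676-20717825 (plus strand) for Polr2h, chr15:79141175-79141324 (plus) for Polr2f, chr11:69758634-69758783 (minus) for Polr2a, chr6:146642429-146642578 (plus) for Med21, chr13:69809732-69809881 (plus) for Med10, chrX:101273941-101274090 (plus) for Med12 and chr5:118560569-118560718 (plus) for Med13l.
Polr2h: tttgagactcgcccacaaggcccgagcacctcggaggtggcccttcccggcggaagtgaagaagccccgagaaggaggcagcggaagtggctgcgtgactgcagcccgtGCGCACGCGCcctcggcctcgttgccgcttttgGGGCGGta
Polr2f: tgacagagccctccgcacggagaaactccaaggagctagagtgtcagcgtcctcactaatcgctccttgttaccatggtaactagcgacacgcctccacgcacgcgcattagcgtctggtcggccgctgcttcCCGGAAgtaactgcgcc
Polr2a: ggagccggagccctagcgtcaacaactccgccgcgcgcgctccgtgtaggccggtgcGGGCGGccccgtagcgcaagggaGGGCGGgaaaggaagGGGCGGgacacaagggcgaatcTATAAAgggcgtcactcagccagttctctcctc
Med21: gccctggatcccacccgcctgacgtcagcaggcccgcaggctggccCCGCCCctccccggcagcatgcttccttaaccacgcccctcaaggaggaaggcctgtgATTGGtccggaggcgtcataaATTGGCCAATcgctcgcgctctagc
Med10: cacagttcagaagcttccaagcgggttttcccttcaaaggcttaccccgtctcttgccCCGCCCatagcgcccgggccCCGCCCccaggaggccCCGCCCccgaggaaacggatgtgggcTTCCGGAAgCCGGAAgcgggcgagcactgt
Med12: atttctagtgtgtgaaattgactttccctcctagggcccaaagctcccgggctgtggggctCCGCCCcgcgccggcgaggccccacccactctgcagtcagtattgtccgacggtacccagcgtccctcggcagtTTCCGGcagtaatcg
Med13l: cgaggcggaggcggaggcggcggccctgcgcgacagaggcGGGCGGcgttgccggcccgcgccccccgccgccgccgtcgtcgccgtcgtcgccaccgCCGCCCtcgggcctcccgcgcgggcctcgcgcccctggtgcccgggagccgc

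Of the 36 promoters, 18 (50%) held the ETS core somewhere in the 300 bases, against 14.9% of all 32851 RefSeq promoters of that length. It was present in 15 of the 21 promoters of genes that were higher in Supt6-KO skin and in 2 of the 8 promoters of genes that were lower. Of the 7 promoters of genes that passed in neither direction, 1 held it. The CCAAT box was present in 11 of the same 21, in 0 of the same 8 and in 2 of the same 7. This gave 36.1% of the 36 promoters against 37.4% of all promoters. The GC box was in 25 (69.4%, against 35.7%), the NRF1 motif in 8 (22.2%, against 4.6%), the TATA box in 4 (11.1%, against 13.6%) and the YY1 core in 1 (2.78%, against 2.75%). These 4 motifs were split more evenly. The GC box was in 14 of the 21 and 5 of the 8, and the NRF1 motif in 5 and 2. For the TATA box these were 2 and 2, and for the YY1 core 1 and 0. Differences between the directions were not tested. Polr2a was among the few with a TATA box, visible at the right of its line above. The ETS and YY1 letters can share bases. These matches describe letters in a window and are not binding sites.

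Supt6 itself was checked first. It was at 74.5, 56.6, 63.6, 91.1 and 96.7 CPM (counts scaled to a common library size with edgeR's TMM factors) in controls 1 to 5 and at 28.6, 24.1, 21.9 and 28.4 CPM in Supt6-KO mice 1 to 4. All Supt6-KO mice lay under all controls, as the labels have it. The log2 fold change was -1.57 (SE 0.18, edgeR adjusted p = 1.3e-05 over all genes tested, where SE is the standard error), which left 33.7% of the control mean in whole skin. Supt6 is a long gene (5178 coding bases), and with corrections for transcript, coding and implied length, described below, its log2 fold change was -0.71, -0.40 and -0.68, each still called lower.

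Of the 43 genes, 26 were higher in Supt6-KO skin, 10 were lower and 7 passed in neither direction at an adjusted p under 0.05. Among all genes tested the same rule called 34.1% higher and 36.8% lower, while the shares here were 60.5% and 23.3%. At least a 2-fold change was seen for 20 of the higher and 8 of the lower genes, where 20.9% and 24.9% of all genes tested reached that size. The median log2 fold change was 0.89 over the 43 genes and -0.07 over all genes tested. In 37 of the 43 genes the CPM of the 2 groups did not overlap, with 27 above the controls and 10 below, where 28.9% and 31.8% of all genes tested did so. These directions are relative to the TMM scaling. With library totals in its place, the median over all genes tested was -0.76, 16.9% of them were higher and 54.6% lower, and 19 of the 43 genes were higher and 16 lower. In bulk skin, fewer cells of a type and less RNA per cell cannot be told apart.

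**Figure D1:**
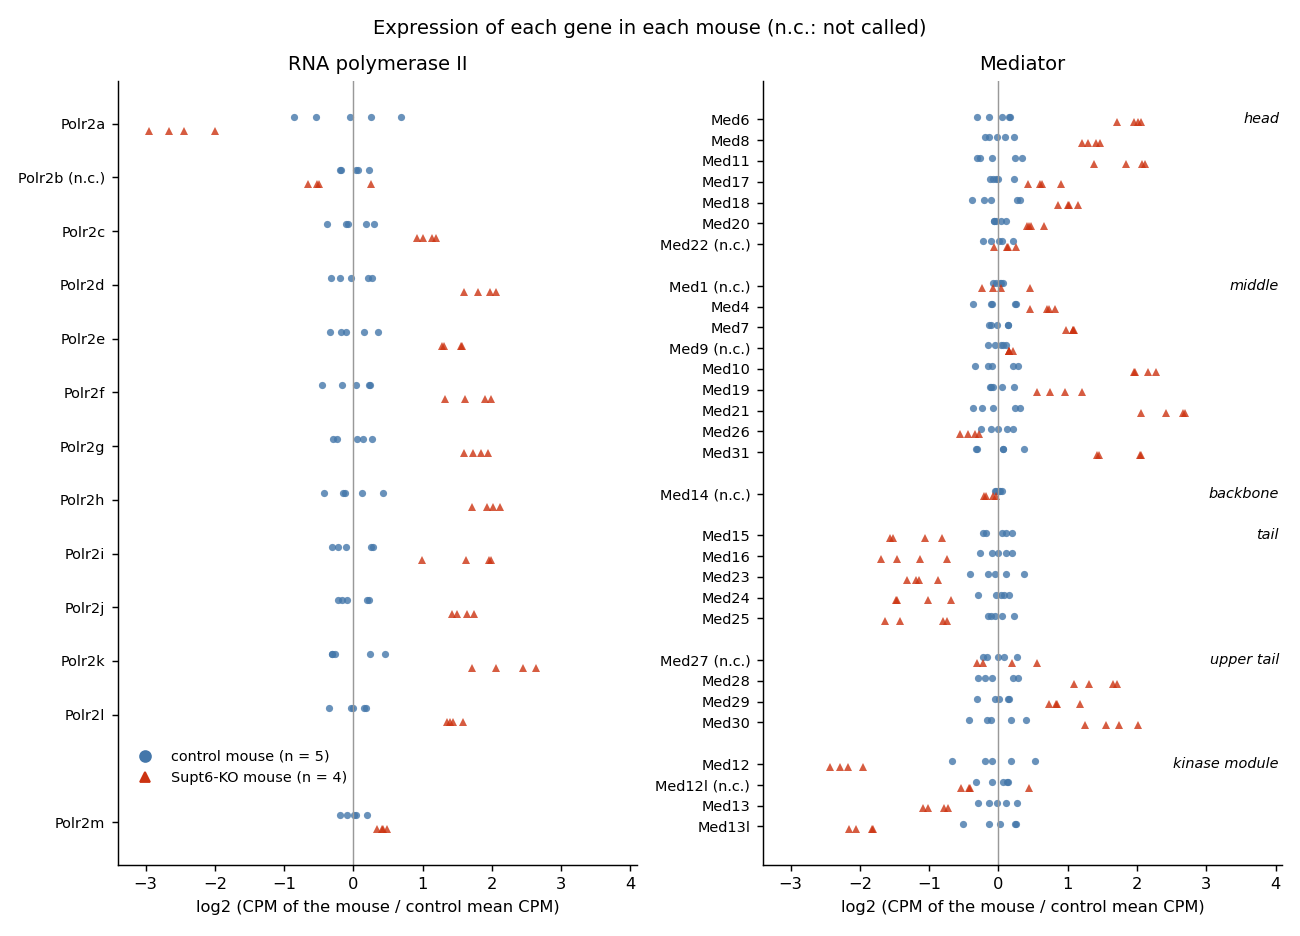
Each row is a gene, the horizontal axis is the log2 ratio of a mouse's TMM-scaled CPM to the mean of the 5 controls, blue circles are control mice and red triangles are Supt6-KO mice. Small Pol II subunits, the head of Mediator except Med22 and most of the middle lie to the right of the controls, whereas Polr2a, the tail and 3 of the 4 kinase module genes lie to the left. With library totals, Polr2m, Med4, Med17 and Med20 would turn from higher to below 0.

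Pol II divided between its largest subunit and its small ones. Of its 13 genes, 11 were higher, 1 was lower and 1 passed in neither direction, with a median log2 fold change of 1.58. Polr2a (chromosome 11, 69733997 to 69758633), which encodes the catalytic subunit with the long C-terminal domain that is phosphorylated during transcription, was the gene that was lower. Its CPM was 52.2, 29.7, 37.3, 64.3 and 86.6 in controls 1 to 5 and 8.52, 6.96, 9.88 and 13.5 in Supt6-KO mice 1 to 4. Every Supt6-KO mouse lay under every control, though the controls themselves spread widely (coefficient of variation 41.9%). The control mean was 54.0 ± 22.6 CPM (SD, n = 5) and the Supt6-KO mean 9.72 ± 2.79 CPM (SD, n = 4), 5.56-fold lower (log2 fold change -2.47, SE 0.32, edgeR adjusted p = 3.6e-05).

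Polr2b, whose product forms the other side of the active centre, did not pass the test with TMM. It was at 62.0, 52.8, 53.7, 63.5 and 70.9 CPM in the controls and at 43.0, 38.5, 42.1 and 72.5 CPM in the Supt6-KO mice. Supt6-KO mice 1 to 3 lay under all controls and Supt6-KO mouse 4 lay above all of them. The log2 fold change was -0.31 (SE 0.19, edgeR adjusted p = 0.16) over all mice and -0.56 without Supt6-KO mouse 4, where it passed the threshold. It also passed with library totals, as lower (-0.96, edgeR adjusted p = 0.0057), and with the coding length correction, as higher (0.62, adjusted p = 0.0026). The count ratio of Polr2b to Polr2a was between 0.818 and 1.78 in the controls and between 4.26 and 5.53 in the Supt6-KO mice.

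The 5 subunits that Pol II shares with Pol I and Pol III (Polr2e, Polr2f, Polr2h, Polr2k and Polr2l) were all higher with TMM. Their log2 fold changes were 1.43, 1.73, 1.95, 2.26 and 1.45. Polr2l did not pass with the coding length correction (0.14, edgeR adjusted p = 0.49), nor Polr2f with the implied length (0.21, adjusted p = 0.061). Polr2k, the smallest of the 5 by coding length (174 bases), had the largest rise among the Pol II genes with TMM and with library totals. Its CPM was 9.49, 13.9, 16.2, 9.79 and 9.52 in the controls and 49.3, 64.4, 73.0 and 38.8 in the Supt6-KO mice, so that the lowest Supt6-KO mouse stood well above the highest control. The means differed 4.78-fold (standard error of the log2 value 0.22, edgeR adjusted p = 5.5e-06). Polr2h was at 14.0, 20.4, 16.5, 13.7 and 11.3 CPM in the controls and at 49.8, 66.0, 61.4 and 57.9 CPM in the Supt6-KO mice, again without overlap and 3.88-fold higher on average (adjusted p = 2.3e-06).

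Polr2d and Polr2g encode the stalk, the detachable pair of subunits near the RNA exit channel, and they rose by similar amounts. Polr2d was at 26.8, 33.0, 31.9, 24.1 and 22.0 CPM in the controls and at 83.3, 108, 114 and 95.2 CPM in the Supt6-KO mice, a rise of 1.86 on the log2 scale (SE 0.15, edgeR adjusted p = 1.6e-06). Polr2g was at 28.9, 33.6, 30.8, 23.6 and 22.7 CPM in the controls and at 84.7, 107, 99.8 and 92.1 CPM in the Supt6-KO mice, a rise of 1.78 on the log2 scale (SE 0.14, edgeR adjusted p = 1.3e-06). Neither gene had an overlap between groups, and in both genes Supt6-KO mouse 1 was the lowest of its group and control 5 the lowest of the controls. Polr2c and Polr2j, which encode the pair that starts the assembly of the enzyme, had log2 fold changes of 1.07 and 1.58. Polr2i, which encodes a subunit linked to transcription fidelity, had 1.69. Polr2m encodes Gdown1, a protein that binds Pol II and competes with initiation factors, and its change was the smallest of the Pol II genes called, at 0.42 (edgeR adjusted p = 0.0058), and turned to -0.27 (adjusted p = 0.072) with library totals.

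Mediator genes went in both directions and are given here by module. Of its 30 genes, 15 were higher, 9 were lower and 6 passed in neither direction, with a median log2 fold change of 0.33 against 1.58 for Pol II. With library totals 9 were higher and 14 lower, with a median of -0.35. The differences between the complexes and between the modules were not tested. With the implied length correction the medians of Mediator and Pol II were 0.54 and 0.55. Median coding length was 636 bases in the head, 2595 in the tail and 6562.5 in the kinase module. The head, which contacts Pol II, had 6 of 7 genes higher and none lower. The middle had 6 of 9 higher and 1 lower. The 4 upper tail genes (Med27, Med28, Med29 and Med30) had 3 higher and none lower (2 higher and 1 lower with the transcript length correction). In contrast, the 5 tail genes were all lower (3 of 5 with the coding length correction). Of the 4 kinase module genes, 3 were lower (2 higher and 2 lower with the coding length correction). Med14, the backbone, was at 80.2 ± 2.53 CPM (SD, n = 5) in the controls and 73.6 ± 4.12 CPM (SD, n = 4) in Supt6-KO skin (log2 fold change -0.12, edgeR adjusted p = 0.25), and the groups overlapped. With library totals it was called lower, at -0.83 (edgeR adjusted p = 5.9e-05).

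In the head, Med6, a subunit close to the interface with Pol II, changed most. It was at 18.0, 19.5, 19.4, 15.8 and 14.1 CPM in the controls and at 57.1, 67.3, 72.1 and 70.6 CPM in the Supt6-KO mice, a 3.84-fold difference of means (edgeR adjusted p = 5.3e-07). Med11 was at 13.6, 18.3, 17.1, 12.1 and 11.7 CPM in the controls and at 52.0, 63.0, 60.7 and 37.7 CPM in the Supt6-KO mice, with Supt6-KO mouse 4 nearest to the controls (log2 fold change 1.88, adjusted p = 5.4e-06). No mouse of either group reached the other group's range in these genes. Med8 rose by 1.35 and Med18 by 1.01 on the log2 scale, and Med17, the scaffold of the head, and Med20 by 0.65 and 0.50. With library totals the values of Med17, Med18 and Med20 were -0.03, 0.32 and -0.18 and did not pass, so that the head had 3 genes higher and 1 lower (Med22). Med22, which pairs with Med11 in the complex, did not pass, at 84.3 ± 9.66 CPM (SD, n = 5) against 91.4 ± 8.32 CPM (SD, n = 4).

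In the middle, Med21 had the largest rise of all 43 genes with TMM and with library totals. It encodes a small subunit at the hinge of the middle module, and its CPM was 14.8, 19.5, 18.5, 12.2 and 13.3 in the controls and 65.1, 102, 100 and 84.2 in the Supt6-KO mice. All Supt6-KO mice were thus above all controls by a wide margin, 5.61-fold on average (log2 fold change 2.49, SE 0.18, edgeR adjusted p = 8.8e-07). Med10 followed, with 19.7, 26.6, 25.1, 20.5 and 17.2 CPM in the controls and 85.5, 97.4, 105 and 84.3 CPM in the Supt6-KO mice, a rise of 2.09 on the log2 scale (adjusted p = 7e-07). Med31, Med7, Med19 and Med4 rose by 1.77, 1.05, 0.89 and 0.68 on the log2 scale, and with library totals Med19 and Med4 no longer passed (0.22 and -0.03). Med26, which hands Pol II over to elongation factors, was lower by a small amount (log2 fold change -0.40, edgeR adjusted p = 0.023), and it lost the call without control 4, without Supt6-KO mouse 2, without Supt6-KO mouse 3 and in each of the 3 length corrections (-0.22, -0.05 and -0.18). Med1, the subunit known for binding nuclear receptors, stood at 22.2 ± 0.911 CPM (SD, n = 5) and 23.2 ± 5.09 CPM (SD, n = 4), with Supt6-KO mouse 4 above the controls and mouse 1 below them. Med9 did not pass either (log2 fold change 0.17, edgeR adjusted p = 0.18), although its 4 Supt6-KO values, from 22.8 to 23.7 CPM, all exceeded the highest control at 22.0 CPM.

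The tail is the part of Mediator that many activators bind. Med15, Med16, Med23, Med24 and Med25 fell within a narrow band with TMM, with log2 fold changes from -1.21 to -1.10. With the coding length correction they were at -0.62, -0.54, -0.07, -0.33 and -0.5 in that order. Med23 and Med24 did not pass there (edgeR adjusted p = 0.58 and 0.053). Med16 was at 22.8, 19.1, 21.5, 24.6 and 26.3 CPM in the controls and at 10.4, 7.05, 8.32 and 13.7 CPM in the Supt6-KO mice, 2.32-fold lower on average (edgeR adjusted p = 0.00017). Med15 was at 31.6, 26.9, 26.1, 32.8 and 34.7 CPM in the controls and at 14.6, 10.3, 10.6 and 17.3 CPM in the Supt6-KO mice, 2.31-fold lower (adjusted p = 9.4e-05). In both genes Supt6-KO mice 2 and 3 were the lowest and Supt6-KO mouse 4 the nearest to the controls, without reaching them. The upper tail went the other way, with log2 fold changes of 1.47 for Med28, 0.91 for Med29 and 1.67 for Med30, while Med27 was at 0.10 (edgeR adjusted p = 0.68). Med29 no longer passed with library totals, at 0.24 (adjusted p = 0.27).

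The kinase module holds Med12 or its paralog Med12l, Med13 or its paralog Med13l, cyclin C and a CDK8-type kinase, and it blocks Mediator from binding Pol II. Med12, which activates the kinase, was at 16.2, 11.7, 17.4, 21.1 and 26.7 CPM in the controls and at 4.14, 3.45, 3.80 and 4.78 CPM in the Supt6-KO mice. The Supt6-KO values lay close together, far under the lowest control, and the mean was 4.60-fold lower (log2 fold change -2.20, SE 0.24, edgeR adjusted p = 8.9e-06). Med13l, which links the module to the core, was at 53.8, 37.3, 48.6, 63.2 and 63.0 CPM in the controls and at 11.9, 15.1, 12.8 and 15.0 CPM in the Supt6-KO mice, 3.89-fold lower (log2 fold change -1.96, adjusted p = 2.5e-06). Its paralog Med13 fell less, from 61.1 ± 9.08 CPM (SD, n = 5) in the controls to 32.8 ± 3.94 CPM (SD, n = 4). Its log2 fold change was -0.90 with TMM (edgeR adjusted p = 0.00012). Med13 turned to 0.21, 0.35 and 0.33 with the transcript, coding and implied length corrections. It was called higher with coding and implied length (edgeR adjusted p = 0.0085 and 0.012). Med12l was rare in this tissue, at 1.06 ± 0.137 CPM (SD, n = 5) and 0.939 ± 0.335 CPM (SD, n = 4), and did not pass (edgeR adjusted p = 0.56).

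The other genes of the kinase module differed in direction. Ccnc, which encodes cyclin C, rose from 18.1 ± 2.91 to 50.4 ± 8.76 CPM (log2 fold change 1.47, edgeR adjusted p = 7.4e-06). Of the alternative kinases, Cdk8 was higher (0.58, adjusted p = 0.0028) and Cdk19 was lower (-0.56, adjusted p = 0.00053). Cdk8 was at -0.09 with library totals, and Cdk19 turned to 0.20 with the transcript length correction, lost the call with the implied length and stayed lower with coding length (-0.34, adjusted p = 0.0062).

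Coding length differed between the genes that rose and those that fell. Over the 43 genes, the log2 fold change and the log10 of the coding length had a Pearson r of -0.88 and a Spearman rho of -0.87, and over the 16093 genes tested with a coding length they were -0.32 and -0.41. Genes of the same libraries are not independent, so these coefficients only describe the spread. Of the other features, transcript length (r of -0.81 over the 43 genes), implied length (-0.82), exon number (-0.75) and span on the genome (-0.67) gave weaker relations. The GC content of the transcript gave -0.25. The Spearman rho differed little between lengths, at -0.84 for transcript and -0.85 for implied length over the 43 genes. Over all genes with an implied length, r was -0.33 and rho -0.41. All genes were divided by coding length into 5 bins of nearly equal size, and the median log2 fold change went from 0.90 in the shortest bin through 0.35, -0.02 and -0.35 to -0.92 in the longest. In the shortest bin, up to 726 coding bases, 19 of 21 Pol II and Mediator genes (90.5%) were higher, against 59.7% of all genes there, with medians of 1.67 and 0.90. In the second bin, from 729 to 1131 coding bases, 6 of 7 (85.7%) were higher, against 45.2% of all genes there, with medians of 0.89 and 0.35. In the fourth bin, from 1593 to 2427 coding bases, 3 of 4 (75.0%) were lower, against 44.2% of all genes there, with medians of -0.75 and -0.35. In the longest bin, from 2430 coding bases, 7 of 11 (63.6%) were lower, against 63.9% of all genes there, with medians of -1.12 and -0.92. In the longest bin the share that fell was thus near that of all genes of that length, and in the 2 shortest bins the share that rose was above it. In the middle bin no gene of either complex was present.

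**Figure D2:**
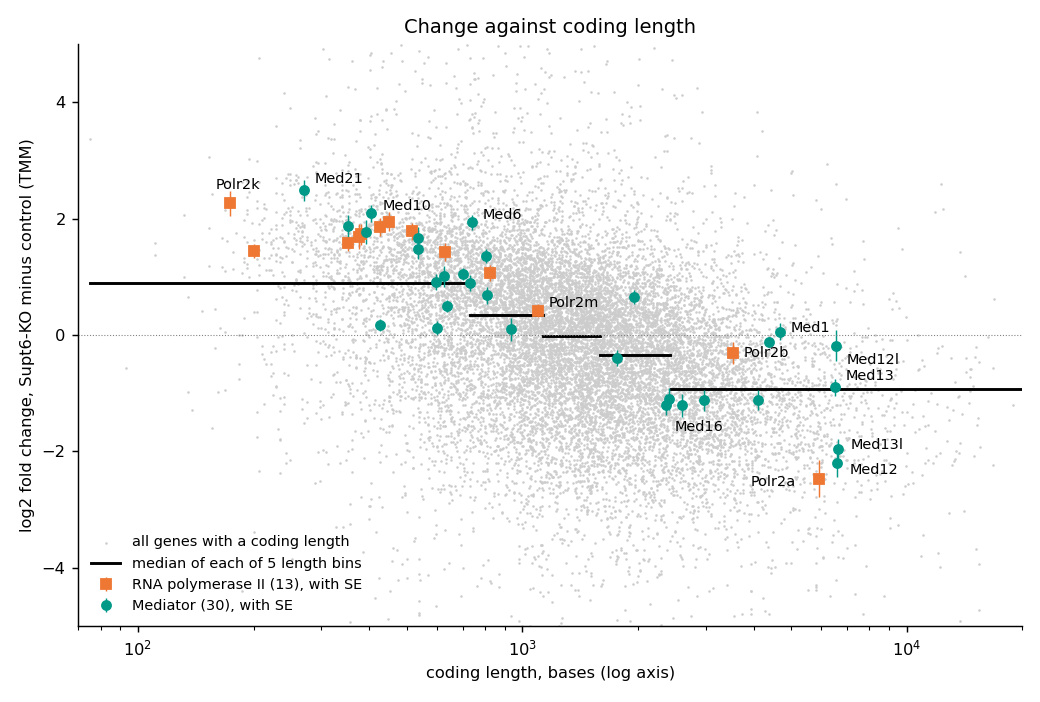
Log2 fold change with TMM scaling against coding length in bases on a log axis, with grey dots for all genes (those beyond 5 in either direction are not drawn), black lines for the median of each of 5 length bins, orange squares for Pol II and green circles for Mediator, with the standard error as bars. The genes descend from Polr2k and Med21 at the upper left to Polr2a, Med12 and Med13l at the lower right, around medians of 0.90 in the shortest and -0.92 in the longest bin, and library totals would lower the median of all genes from -0.07 to -0.76.

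Genes of nearly equal coding length still differed. Med12, Med12l, Med13 and Med13l have 6570, 6555, 6513 and 6621 coding bases and had log2 fold changes of -2.20, -0.18, -0.90 and -1.96. Med1 (4680 bases) and Med14 (4377 bases) lie in the longest bin and had 0.06 and -0.12. Among short genes, Med9 (426 bases) was at 0.17 and Polr2d, of the same coding length, at 1.86. Med28 has a short coding region of 534 bases in a transcript of 4560 bases, and its log2 fold change of 1.47 was near that of Med30, which has the same coding length and a transcript of 1007 bases. Other such pairs differed more. Polr2l (201 coding bases, transcript of 1650) was at 1.45 and Polr2k (174, transcript of 489) at 2.26. Med20 (636, transcript of 2054) was at 0.50 and Polr2e (630, transcript of 1148) at 1.43.

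The length trend was also removed from each mouse by a smooth curve before testing. With transcript length, 36.4% of all genes tested were higher and 31.7% lower, and of the 43 genes 27 were higher and 10 lower. With coding length, a choice made after seeing the data, these were 37.1% and 31.2% of all genes and 28 and 8 of the 43. With the length implied by the deposited counts and TPM, a level per length, also chosen after seeing the data, they were 36.4% and 31.6% of all genes and 29 and 8 of the 43. The median log2 fold change of the Pol II genes was then 0.65, 0.71 and 0.55 in that order, down from 1.58, while that of Mediator was 0.46, 0.39 and 0.54, beside 0.05, 0.09 and 0.06 over all genes. Polr2a remained lower in the 3 corrections, at -1.56, -1.21 and -1.49, and so did Med12, at -1.30, -0.91 and -1.08, and Med13l, at -0.90, -0.69 and -0.79. Med13 turned to 0.21, 0.35 and 0.33, and was called higher with coding and implied length. Med14 turned to 0.76, 0.94 and 0.81. Of the other genes not called with TMM, Med1 was called higher in the 3 corrections (0.82, 1.15 and 0.47) and lower with library totals (-0.61), and so was Med12l (0.95, 1.07 and 1.02, and -0.89). Med9 and Med22 were called lower with coding length (-0.77 and -0.51) and higher with the implied length (0.38 and 0.44). With transcript length Med22 and Med27 were called lower (-0.82 and -0.57, edgeR adjusted p = 0.00041 and 0.039). Of the tail genes, Med23 and Med24 lost the call with coding length, at -0.07 (edgeR adjusted p = 0.58) and -0.33 (adjusted p = 0.053). Of the shared Pol II subunits, Polr2l lost it with coding length, at 0.14 (edgeR adjusted p = 0.49), and Polr2f with the implied length, at 0.21 (adjusted p = 0.061). Polr2j also lost it with the implied length, at 0.12 (edgeR adjusted p = 0.35). Med29 did not pass with transcript or coding length, at 0.25 and 0.29, nor Med4 with transcript or implied length, at 0.04 and 0.07. In the 3 corrections Med21 was at 1.13, 1.29 and 1.34, and Polr2k at 0.75, 0.81 and 0.63. The largest rise of the 43 genes was then that of Med28 with transcript and implied length (2.0 and 2.06). With coding length it was that of Med6 (1.5). Among the Pol II genes Polr2l rose most with transcript and implied length (1.08 and 1.12), and Polr2h with coding length (1.08).

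A call in the same direction with TMM, with library totals and with each of the 3 length corrections was found for 16 higher and 6 lower genes of the 43. Among all genes tested, 15.0% were higher and 24.2% lower by the same rule. The higher ones were Polr2c, Polr2d, Polr2e, Polr2g, Polr2h, Polr2i, Polr2k, Med6, Med7, Med8, Med10, Med11, Med21, Med28, Med30 and Med31. The lower ones were Polr2a, Med12, Med13l, Med15, Med16 and Med25.

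**Figure D3:**
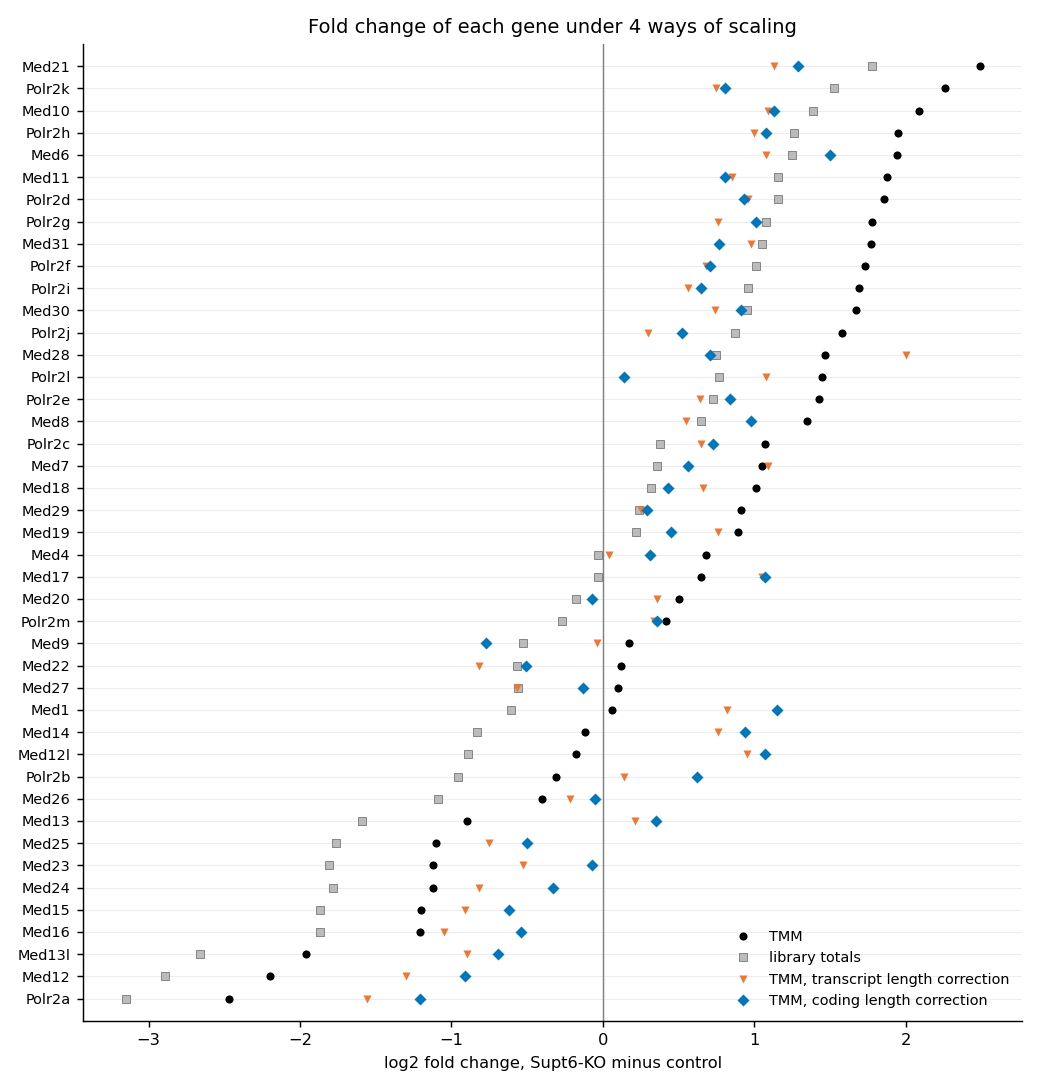
Log2 fold change of each of the 43 genes with TMM (black circles), library totals (grey squares), TMM with a transcript length correction (orange triangles) and TMM with a coding length correction (blue diamonds), ordered by the TMM value. Library totals shift every gene to the left, the length corrections draw both ends toward 0, and the genes in the middle, such as Med1, Med9, Med13, Med14, Med22 and Polr2b, change sign between settings.

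Mice of the same group also differed in how their values related to length. Per mouse, the slope of the log2 ratio to the control mean on the log10 of coding length, over 13358 genes, was -0.07, -0.42, -0.25, 0.20 and 0.54 in controls 1 to 5 and -1.77, -2.04, -2.01 and -1.50 in Supt6-KO mice 1 to 4. The counts of Polr2k per count of Polr2a, which no scaling of a whole library can alter, were 0.182, 0.470, 0.436, 0.152 and 0.110 in the controls and 5.79, 9.26, 7.39 and 2.87 in the Supt6-KO mice. Controls 2 and 3 had the most negative slopes and the highest ratios of their group, as did Supt6-KO mice 2 and 3 in theirs. For Med21 per Med12 the ratio was between 0.498 and 1.66 in the controls and between 15.7 and 29.4 in the Supt6-KO mice. Each pair joins the genes with the largest rise and the largest fall with TMM in its complex. A gap between the groups thus follows from the choice of genes and is not separate evidence. Among the Supt6-KO mice, mouse 4 was the nearest to the controls in 12 of the 26 higher and 6 of the 10 lower genes. Mouse 1 was the nearest in 10 and 3 of them. Mouse 2 was the farthest in 13 and 9 of them, mouse 3 in 8 and 0, and mouse 4 in 5 and 0. Whether the length slope or RNA integrity has a part in the group difference was not tested, and no integrity values were used here.

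**Figure D4:**
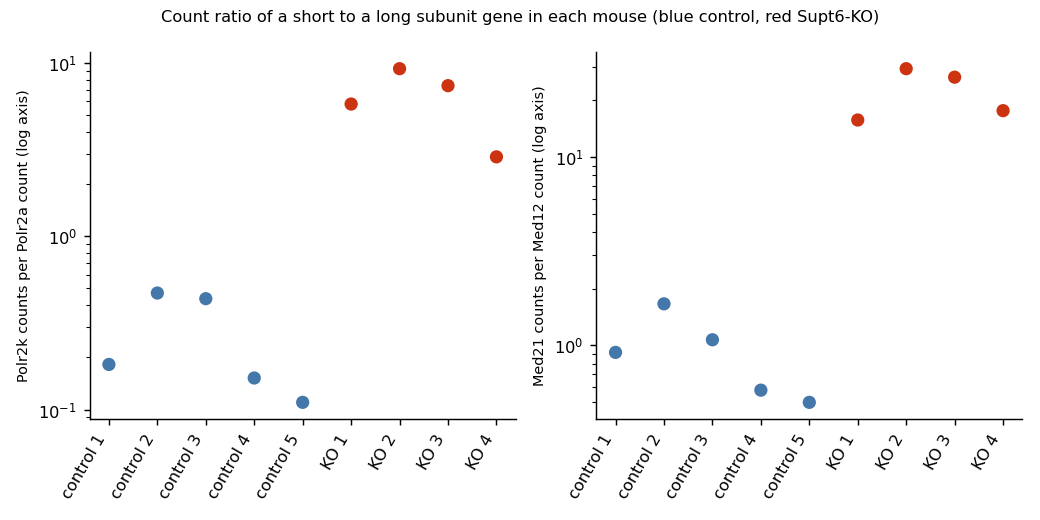
Counts of Polr2k per count of Polr2a (left) and of Med21 per count of Med12 (right) in each mouse, on log axes, with blue points for the 5 controls and red points for the 4 Supt6-KO mice. The highest control reaches 0.470 and 1.66, and the lowest Supt6-KO mouse is at 2.87 and 15.7. Each pair joins the genes with the largest rise and fall with TMM in its complex, so a gap between the groups follows from the choice.

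Levels of different genes were compared per length, in TPM, which were deposited for the 5 controls and for Supt6-KO mouse 4. In the controls, the 12 core Pol II subunits ran from Polr2f at 242 ± 20.8 TPM (SD, n = 5) to Polr2a at 13.9 ± 7.57 TPM, a ratio of 17.4. Next to Polr2f came Polr2j at 174 ± 8.09 TPM and Polr2e at 93.1 ± 8.06 TPM. Polr2e and Polr2k (91.7 ± 14.9 TPM) overlapped between mice, and 6 of the 12 core subunits overlapped with the core subunit next below them. Polr2b, the other large subunit, was at 27.9 ± 6.99 TPM. In Supt6-KO mouse 4 the ratio of the highest to the lowest core subunit was 192, with Polr2f at 320.1 TPM and Polr2a at 1.67 TPM. Among the Mediator genes of the controls, Med4 was highest at 90.0 ± 5.96 TPM, Med10 and Med21 followed at 63.3 ± 4.28 and 53.6 ± 6.07 TPM, and Med12l was lowest at 0.17 ± 0.0374 TPM. Med10 and Med21 overlapped between mice, and 27 of the 30 Mediator genes overlapped with the Mediator gene next below them. The tail genes of the controls lay between 6.83 TPM (Med23) and 32.6 TPM (Med25). Most genes that fell with TMM had low levels in the controls. Polr2a was the lowest Pol II gene. Of the Mediator genes that fell, Med25 was above the Mediator median of 16.2 TPM and Med15 was close to it, at 16.3 TPM. The others were below it, down to Med12 at 3.74 TPM. Med17, Med7, Med29 and Med18, which rose, were also below it, from 13.4 down to 5.04 TPM. A relation between TPM and direction was not tested. The order of levels rests on the lengths behind the TPM values, and for Supt6-KO mouse 4 there is no replicate.

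**Figure D5:**
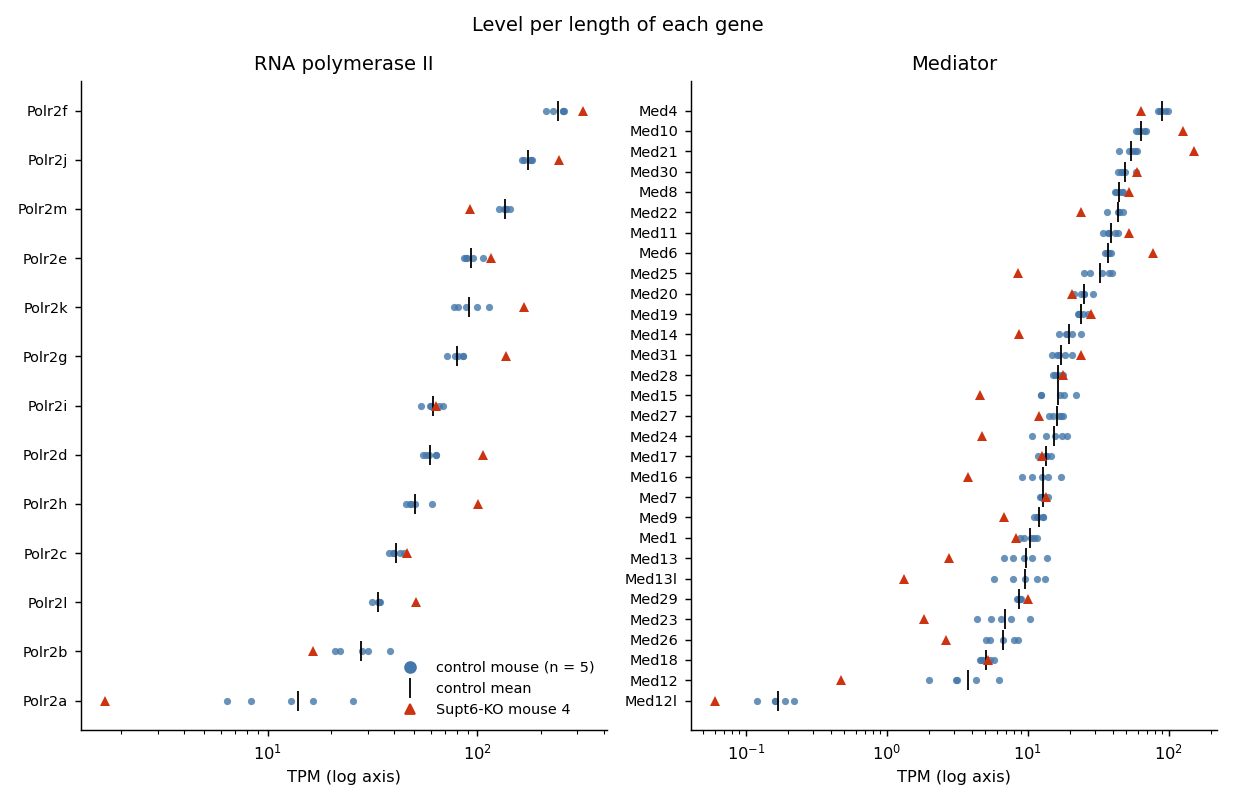
TPM of each gene on a log axis, with blue circles for the 5 controls, a black tick for their mean and a red triangle for Supt6-KO mouse 4. Polr2a is the lowest Pol II gene in the controls, at 13.9 TPM, and lies at 1.67 TPM in Supt6-KO mouse 4, while Polr2f, the highest, is at 242 and 320.1 TPM.

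Other genes of the transcription machinery were counted from lists of named genes. Of 19 subunits that belong only to Pol I or Pol III, 11 were higher and 2 lower (median log2 fold change 0.54), and with library totals 8 were higher and 8 lower (median -0.12). Polr1d, shared by Pol I and Pol III, and Twistnb, a Pol I stalk subunit, rose most, by 2.10 and 1.66 on the log2 scale. The lower ones were Polr1a and Polr3a, which encode the largest subunits of those enzymes, at -1.24 (edgeR adjusted p = 0.004) and -0.57 (adjusted p = 0.01). Both have long coding regions (5151 and 4170 bases), and with the coding length correction they were at -0.08 and 0.50, unlike Polr2a.

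The general transcription factors, which place Pol II at promoters, had 15 of 17 genes higher and 1 lower (median 0.86). Gtf2h5 and Gtf2a2, small subunits of TFIIH and TFIIA, rose by 2.25 and 1.97, and Ercc2, a TFIIH helicase, was the lower gene at -1.10 (edgeR adjusted p = 0.00055). With library totals 7 of the 17 were higher. TFIID, which recognises core promoters, had 8 of 14 genes higher and 2 lower (median 0.57). Taf9 and Taf12, which share a histone-like fold, rose by 1.76 and 1.57, and Taf3 and Taf4 were at -1.16 and -0.49 (adjusted p = 0.00086 and 0.0091). With the coding length correction Taf3 was at -0.43 (adjusted p = 0.076) and Taf4 turned to 0.37 (adjusted p = 0.044). With library totals, 4 of the TFIID genes were higher and 7 lower.

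Of 13 genes for the assembly of Pol II and for phosphatases of the C-terminal domain, 7 were higher and 6 lower (median 0.61), and with library totals 3 were higher and 6 lower (median -0.04). Ssu72, a phosphatase of that domain, and Rprd1a, a protein that binds it, rose by 1.78 and 1.72. The small phosphatases Ctdspl and Ctdsp2 fell most, from 71.6 ± 9.17 to 17.4 ± 4.18 CPM (log2 fold change -2.04, edgeR adjusted p = 2.1e-06) and from 338 ± 42.2 to 90.7 ± 22.8 CPM (-1.90, adjusted p = 4e-06). Their relative Ctdsp1, named after its value was seen, was at -1.25. These genes have short coding regions (828, 810 and 783 bases), and with the coding length correction their log2 fold changes were -2.39, -2.28 and -1.65, and with the transcript length correction -1.49, -1.30 and -1.11.

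Cell type markers also differed between the groups. All 6 neutrophil markers were higher, and their summed CPM, led by Mmp9 in the controls and S100a9 in the Supt6-KO mice, was between 24.4 and 55.0 in the controls and 4585, 5186, 6472 and 2532 in Supt6-KO mice 1 to 4. Of 7 basal keratinocyte markers, the cells in which K14-CreERT acts, 6 were lower, and the sum, led by Krt5 in the controls and Krt14 in the Supt6-KO mice, was between 11643 and 13313 in the controls and 8402, 5801, 7014 and 14105 in the Supt6-KO mice. The high sum of Supt6-KO mouse 4 came from Krt14, at 9613 CPM against 2972 to 3809 CPM in the controls, and its other 6 basal markers all lay under the lowest control. Of 6 skeletal muscle markers, led by Acta1 in the controls, 5 were lower, with sums between 3492 and 4628 CPM in the controls and between 738 and 1212 CPM in the Supt6-KO mice. Cartilage, a tissue of the ear named in the labels, had its markers at 310 to 749 CPM in the controls, led by Acan, and at 37.7 to 41.9 CPM in the Supt6-KO mice, with 4 of 4 tested lower. The macrophage list had 4 of 5 higher and 1 lower (131 to 256 against 555 to 1032 CPM, led by Lyz2), and the melanocyte list 5 of 5 higher (46.7 to 65.2 against 99.7 to 177 CPM, led by Dct).

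Suprabasal keratinocyte markers, led by Krt10, had 2 of 6 higher and 1 lower, with sums of 19588 to 22092 CPM in the controls and 37810, 35439, 34324 and 17959 CPM in the Supt6-KO mice. Among the remaining lists, 4 of 6 fibroblast, 3 of 4 T cell, 4 of 5 endothelial cell and 4 of 5 adipocyte markers were lower, and none was higher. The cell cycle list had 3 of 7 higher and none lower, with sums of 125 to 220 CPM in the controls and 191, 181, 286 and 789 CPM in the Supt6-KO mice, led by Top2a in the controls. Supt6-KO mouse 4 was thus the highest in cell cycle genes and in Polr2b. With library totals the counts were 2 higher and 4 lower for suprabasal keratinocytes, 4 neutrophil, 2 macrophage and 3 melanocyte markers higher, and 6 fibroblast and 5 endothelial cell markers lower. With each length correction 6 of the 7 cell cycle genes were higher, and with coding length 2 of the 5 endothelial cell markers were lower. No list was without counts in either group. The part of these shifts in cell make-up in the Pol II and Mediator differences was not tested.

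The strand used in counting is not given in the sources used here, and 18 of the 43 genes share exonic bases with another annotated gene, 7 of them over a large share of the transcript. Med10 shares 90.9% of its transcript with Gm26819 and Med31 39.2% with 4930563E22Rik, both on the opposite strand. Polr2i shares 39.7% with Tbcb, which also rose (log2 fold change 1.21), Polr2c shares 26.3% with Dok4 (0.56), Polr2j 27.2% with Lrwd1 (0.47, edgeR adjusted p = 0.081) and Polr2f 27.7% with 1700088E04Rik (-0.65). Med20 shares bases with Gm20517 on the same strand. Whether reads from pairs on opposite strands were assigned by strand is not known here. The values of the genes that share bases are less certain than the others, above all those of the 7. The counts behind the 43 genes ran from 15.55 for Med12l in Supt6-KO mouse 3 to 6928 for the most abundant of them, and the lowest count of any member other than Med12l was 72 (Med12).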

How the data were processed

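RNA-Seq was done on whole skin of 5 control and 4 Supt6-KO mice, and replicates are separate mice by the labels. According to the methods and the submitters' processing notes, reads were aligned to mm10 with Bowtie2 2.3.4.3 and RSEM 1.3.1 produced the gene values. The notes also list HISAT and DESeq2 1.4.5. The annotation release and the counting strand are not given in the sources used here. The authors deposited estimated counts (expected counts) per gene, not normalized between mice, of which 9.0% were not whole, and TPM values for 6 mice. The deposited TPM values served only for levels and for an implied length. The estimated counts were rounded, and genes with a sum under 10 over the 9 mice were left out.

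The groups were compared with the quasi-likelihood test of edgeR (version 4.0.16 under R 4.3.3) with TMM factors (1.198 to 1.315 in controls, 0.6738 to 0.9098 in Supt6-KO mice), no covariates, and Benjamini-Hochberg adjustment over all genes tested. A call is an adjusted p under 0.05. DESeq2 1.42.0 was an alternative. Length corrections subtracted a lowess trend (span 0.3) of each mouse on log10 length. Lengths are of GENCODE vM21 transcripts on GRCm38, known for 98.4% (transcript) and 98.0% (coding) of the genes tested, and implied lengths for 96.3%. Of the row identifiers, 17519 were matched by gene ID, 331 by symbol, 67 by synonym and 26 not at all. The test was also tried on simulated counts, with the same dispersion for every gene and far fewer changed genes than were called here. That trial does not measure the error of the present calls, and no result rests on it.

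The members and gene lists were chosen with earlier results of these data known. Every member is named, and values per mouse are given for Supt6, Polr2a, Polr2b and, in each complex, up to 4 genes called higher and 4 called lower, taken by size of change. In each list of other machinery the 2 largest changes in each direction are named. Cell type lists covered basal and suprabasal keratinocytes, fibroblasts, neutrophils, macrophages, T cells, endothelial cells, skeletal muscle, adipocytes, melanocytes, cartilage and cell cycle. Summaries used Python 3.11.15 and pandas 2.3.3.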

Additional observations from a re-analysis of the deposited data

Results flagged for a closer look

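Of 88 sets of values examined, 1 for each group of mice in each of the 43 genes and in Supt6, 3 held a mouse that stood apart from the rest of its group, where about 1 in 20, or 4.4, would do so by chance. Polr2b was at 72.5 CPM in Supt6-KO mouse 4, against a group median of 42.5 CPM. Med9 was at 23.7 CPM in Supt6-KO mouse 2, against a median of 22.8 CPM, within a group that otherwise lay very close together. Med12l was at 1.44 CPM in Supt6-KO mouse 2, against a median of 0.792 CPM.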

How the results depend on the processing

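With DESeq2, with no filter on low counts, with at least 10 counts in every mouse and with the replicate block, Supt6 and the 43 genes kept their direction and their side of the threshold, except Med9, which passed in DESeq2. With library totals, 2771 of all genes tested were higher. The Pol II genes then had 2 lower, the Mediator genes 9 higher and 14 lower, the kinase module partners 1 higher, the Pol I and Pol III subunits 8 lower, the general transcription factors 7 higher, TFIID 4 higher and 7 lower, and the assembly and phosphatase list 3 higher. With the transcript length correction, 0 kinase module partners and 1 TFIID gene were lower. Library totals turned the log2 fold change to -0.27 for Polr2m, -0.03 for Med17, -0.18 for Med20, -0.57 for Med22, -0.61 for Med1, -0.03 for Med4, -0.53 for Med9 and -0.56 for Med27, since this scaling lowers all genes together.

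Values that turned with the transcript length, coding length or implied length correction are given in that order, without those that kept their direction. They were 0.14, 0.62 and 0.12 for Polr2b, 0.76, 0.94 and 0.81 for Med14, 0.95, 1.07 and 1.02 for Med12l, 0.21, 0.35 and 0.33 for Med13, -0.57, -0.13 and -0.52 for Med27, -0.82 and -0.51 (transcript and coding) for Med22, -0.04 and -0.77 (transcript and coding) for Med9 and -0.07 (coding) for Med20. The annotated transcript of Med22 (973 bases) is much shorter than its implied length (3569 bases), and with the implied length it was at 0.44. The last 2 corrections were chosen after seeing the data.

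Leaving out each mouse in turn gave 1 to 2 lower Pol II genes, the added one being Polr2b without Supt6-KO mouse 4. Without that mouse Med1 and Med27 turned to -0.10. Over these repeats Med1 ranged from -0.10 to 0.15 and Med27 from -0.10 to 0.19, and the log2 fold change of Polr2a ranged from -2.68 to -2.23, that of Med12 from -2.33 to -2.03 and that of Med21 from 2.40 to 2.61.

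Mice with the same number in both groups did not deviate together (correlations of -0.021 to 0.106 and a mean of 0.048 over 4 pairs, against -0.01 over 16 other pairs), so the numbers are not taken as pairs. The replicate block put Supt6 at -1.46 and changed no call of the 43 genes. The replicate block with the transcript length correction turned Polr2b to 0.13, Med22 to -0.85, Med4 to -0.01, Med9 to -0.07, Med14 to 0.70, Med27 to -0.66, Med12l to 0.85 and Med13 to 0.18, and Polr2j (0.29), Med26 (-0.19) and Med29 (0.18) lost their calls. Med12l had the lowest counts of the 43 genes, so its values are the least precise. The cause of the changes was not tested.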
